A study of Mus musculus with 12 samples.

Results

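The interferon-inducible GTPases of the Gbp and Irg families were followed across 12 one-colour Agilent arrays of mouse pluripotent stem cells. The members were every probe that is not a control and that the array names for Gbp2, Gbp3, Gbp4, Gbp5, Gbp6, Gbp7, Gbp9, Irgm1, Irgm2 or Igtp, which gave 14 probes for 10 genes out of 55681 probes for 24038 named genes. These genes were picked with earlier results of the same mouse embryonic stem cell arrays known, in which Gbp2, Gbp3 and Irgm1 were among those with the lowest values in Tbx3-high cells. Their values in that comparison are therefore a description and carry no test. The comparison of the induced pluripotent cells takes its differences from other samples and is tested. Its SE and p-values rest on a spread shared by all 12 arrays, those of the embryonic stem cells included.

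The mouse embryonic stem cells (mESC) were 4 samples labelled Tbx3-high and 4 samples labelled Tbx3-low, where Tbx3 encodes a T-box factor that takes part in pluripotency. The mouse induced pluripotent stem cells (iPSC, somatic cells returned to a pluripotent state) comprised 2 Tbx3-null samples and 2 wild-type samples. The sources used here do not state strain, culture conditions, how high and low cells were separated or which part of Tbx3 the null cells lack. They also do not say whether samples of 1 group are separate cultures, so a p-value covers only the spread among these arrays, which may be technical.

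Guanylate-binding proteins (Gbp) and immunity-related GTPases (Irg) are large GTPases that interferon, above all interferon gamma, induces in mouse cells. They gather on the vacuoles of intracellular pathogens, and the Irg proteins with a GMS motif in the nucleotide site, Irgm1, Irgm2 and Igtp (Irgm3), act as regulators that keep the effector GTPases off the cell's own membranes. Interferon acts through receptors, Jak kinases, Stat factors and Irf factors, which bind interferon-stimulated response elements (ISRE) and gamma-activated sites (GAS) in target promoters. Pluripotent stem cells are known for a weak interferon response.

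The promoter windows of the genes are shown because each of the 7 genes with a window held an ISRE-type match in it. Windows ran from 250 bases before to 50 bases after each annotated start (RefSeq, GRCm38.p6). Gbp2, Gbp3, Gbp5, Gbp7, Irgm1, Irgm2 and Igtp had a window, and Gbp4, Gbp6 and Gbp9 are named only. Below, 60 bases around the first match are given 5′ to 3′ on the strand of the gene, and capitals mark the letters that matched the ISRE pattern, searched on both strands.
Gbp2, chr3:142620579-142620638, plus strand: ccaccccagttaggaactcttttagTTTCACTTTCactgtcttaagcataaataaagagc
Gbp3, chr3:142559974-142560033, plus strand: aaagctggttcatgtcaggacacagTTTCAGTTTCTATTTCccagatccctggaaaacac
Gbp5, chr3:142496744-142496803, plus strand: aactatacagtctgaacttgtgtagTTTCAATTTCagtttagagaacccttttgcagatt
Gbp7, chr3:142530258-142530317, plus strand: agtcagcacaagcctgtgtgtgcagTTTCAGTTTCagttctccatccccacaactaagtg
Irgm1, chr11:48871416-48871475, minus strand: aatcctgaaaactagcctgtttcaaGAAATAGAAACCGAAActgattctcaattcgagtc
Irgm2, chr11:58214888-58214947, plus strand: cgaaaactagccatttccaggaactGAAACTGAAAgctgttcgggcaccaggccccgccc
Igtp, chr11:58199497-58199556, plus strand: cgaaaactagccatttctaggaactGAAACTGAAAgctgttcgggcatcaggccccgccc

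All 7 member genes with a window held the ISRE-type match, in 7 of their 8 windows, against 3.44% of the 32851 windows and 3.99% of the 27025 genes in the table. Among the other interferon pathway genes described further on, 31 of 99 with a window held it. The match began 165 bases before the start in Gbp5 and between 64 and 24 bases before it in Gbp2, Gbp3, Gbp7, Irgm1, Irgm2 and Igtp, and Gbp3 and Irgm1 each held a pair of overlapping matches. The GAS pattern, which reads the same on both strands, was found in 4 of the 7 genes (Gbp5, Gbp7, Igtp and Irgm2), against 9.55% of all genes. The Igtp and Irgm2 stretches were identical at 58 of 60 bases, while no other pair of the 7 stretches was identical at more than 28. A match is a run of letters and does not show that a factor binds there.

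**Figure D1:**
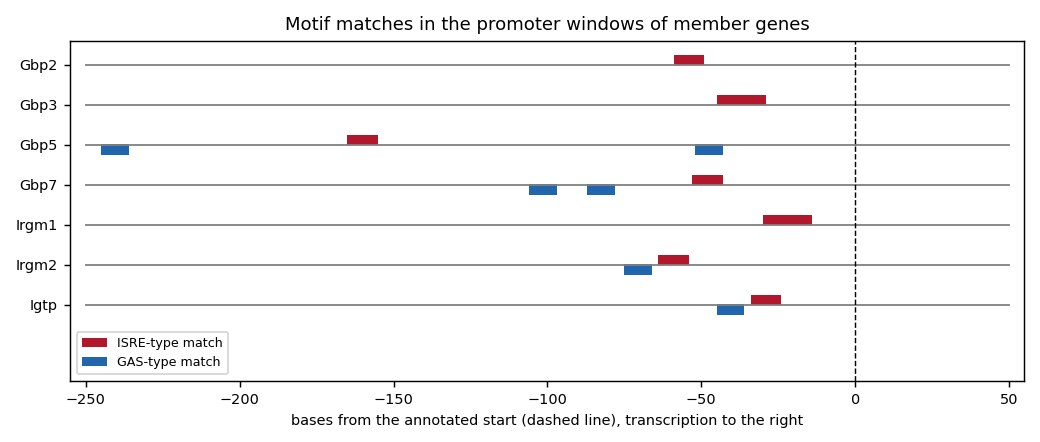
Positions of ISRE-type (red, above the line) and GAS-type (blue, below the line) matches in the promoter windows of 7 member genes, in bases from the annotated start (dashed line). Each line spans the window from 250 bases before to 50 bases after the start, for Gbp3 the 1 of its windows that held a match. In all genes but Gbp5 the ISRE-type matches lay within 64 bases of the start.

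Signals are given as a percentage of the 75th percentile of the probe signals on the same array, and differences as log2 differences of group means. A signal counted as measured where the scanner software marked it well above background. The 75th percentile lay between 314 and 458 intensity units on the Tbx3-high and 333 and 403 on the Tbx3-low arrays, and between 699.8 and 924 on the Tbx3-null and 922 and 1007 on the wild-type arrays. Between 62.4% and 63.0% of spots passed the background mark on the Tbx3-null and between 68.0% and 68.6% on the wild-type arrays, and the part of this gap in the lower values of the Tbx3-null arrays was not tested. The 2 cell types lay on separate slides, so cell type and slide cannot be told apart and levels are not set against each other across them. On each slide the groups compared lay in different columns, so group and column cannot be told apart. The pluripotent stem cell markers were well above background on all arrays of every group, 10 of 10. At an adjusted p under 0.05 in limma, 4 of them rose and 1 fell in Tbx3-high mESC, against 17.2% higher and 13.9% lower among all named genes. In Tbx3-null iPSC 2 rose and 0 fell, against 19.4% higher and 15.3% lower. Tbx3 itself was 1.33 ± 0.08 (SE) log2 higher in Tbx3-high than in Tbx3-low mESC (limma, adjusted p = 7.3e-07). On the arrays labelled Tbx3-null the 1 Tbx3 probe was 0.32 ± 0.11 log2 higher than on the wild-type arrays (limma, adjusted p = 0.048), and since the removed part of the gene is not given, the probe does not check this label.

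The oligos that carry the main values are shown by their first 30 bases of 60, 5′ to 3′, with their place on mm9 as the array files give it. They are the Gbp2, Gbp3 and Gbp9 probes and the pair of Irgm1 probes, which lie apart in the same transcript.
Gbp2, chr3:142300719-142300778, plus strand: gtttctcctgtataatcttaagtgttcctc
Gbp3, chr3:142236032-142236091, plus strand: cacattggcatatgtatcccagttgtacac
Gbp9, chr5:105508946-105509005, minus strand: aatataaaagtgctgatttgagggtggctg
Irgm1, chr11:48679069-48679128, minus strand: gcattgttccactgagggacagggacaagt
Irgm1, chr11:48679632-48679691, minus strand: agagaatagccaacgagtccttgaagaatt

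The genes fall into clusters on the genome. Gbp5, Gbp7, Gbp3 and Gbp2 lie together on chromosome 3, Gbp9, Gbp4 and Gbp6 on chromosome 5, Irgm1 alone on chromosome 11, and Igtp with Irgm2 at another place on chromosome 11. Gbp genes are near copies of each other, so a Gbp probe may also bind transcripts of related copies.

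In mESC, with signals taken as read, 7 of the 10 genes were lower in Tbx3-high than in Tbx3-low cells on all arrays and by at least 2-fold, through 8 of the 14 probes: Gbp2, Gbp3, Gbp4, Gbp7, Irgm1, Irgm2 and Igtp. With signals below the background mark lifted to the detection floor of their array, the weakest signal still marked above background there, 7 probes kept a difference of at least 2-fold and Gbp4 did not, a setting chosen after seeing the data. Gbp5, Gbp6 and Gbp9 overlapped between the groups. None of the 14 probes was higher on all Tbx3-high arrays, and 11 passed the filter on dim probes. Of all 30691 probes tested, 2.02% were lower without overlap and by at least 2-fold, and nothing is read from the members' count because they were chosen on this comparison.

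Gbp2, a guanylate-binding protein that helps to attack pathogen vacuoles, was not well above background on any Tbx3-high array. Its signal was 2.09%, 3.02%, 1.55% and 1.23% of the 75th percentile on the Tbx3-high arrays, against 179%, 199%, 253% and 249.3% on the Tbx3-low arrays. Tbx3-high cells were thus at least 66.7-fold lower, a bound that lifts each dim array to that floor. Gbp3 lay between 0.592% and 0.845% on the Tbx3-high arrays, again below background, against 29.2%, 24.9%, 37.5% and 31.0% on the Tbx3-low arrays, at least 9.29-fold lower in Tbx3-high. Gbp7 lay between 0.880% and 1.91% on the Tbx3-high arrays, below background, against 7.04%, 7.33%, 10.8% and 10.5% on the Tbx3-low arrays, at least 2.67-fold lower. The 3 genes thus left background in the Tbx3-low cells alone among the mESC groups, and all 4 Tbx3-low arrays showed it.

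Gbp4, which lies on chromosome 5, was close to background. It had 2.90%, 0.752%, 1.63% and 5.06% on the Tbx3-high arrays, 2 of them well above background, against 5.85%, 5.37%, 8.86% and 7.32% on the Tbx3-low arrays. The groups did not overlap, but the highest Tbx3-high array came close to the lowest Tbx3-low array. The difference of -1.71 log2 rests on 2 dim Tbx3-high arrays: with these lifted to their floors Gbp4 averaged 3.67% in Tbx3-high and 6.72% in Tbx3-low cells, 1.83-fold lower in Tbx3-high (-0.87 log2), and the difference was -0.32 with normexp background correction and -0.47 with the deposited series table. Its neighbours in the same cluster did not share the gap: Gbp9 had 12.5%, 12.0%, 11.0% and 8.70% on the Tbx3-high arrays against 12.2%, 13.2%, 10.4% and 13.1% on the Tbx3-low arrays, and the groups overlapped. Gbp6 ranged from 26.1% to 88.6% in Tbx3-high and from 25.6% to 62.9% in Tbx3-low cells by probe A_55_P2052380, with a spread between arrays of 1 group larger than any gap between the groups.

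Gbp5, known in macrophages for promoting inflammasome assembly, was measured by 2 probes. Probe A_55_P2145059 had 130%, 146%, 119% and 147% on the Tbx3-high arrays, against 121%, 121%, 113% and 141% on the Tbx3-low arrays, so that Gbp5 overlapped where Gbp2, Gbp3 and Gbp7 of the same cluster did not. Probe A_52_P327664 was well above background on 1 array of each mESC group. The second probes of Gbp6 (A_55_P2052385) and Gbp7 (A_55_P2143154) were not well above background on any of the 12 arrays, so Gbp7 rests on 1 probe and the direction of the second cannot be read.

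Among the regulators, Irgm1 showed the same gap on both of its probes. Probe A_51_P262171 had 5.21%, 3.59%, 6.95% and 3.90% on the Tbx3-high arrays, 3 of them well above background, against 85.0%, 89.6%, 113% and 103% on the Tbx3-low arrays, a difference of -4.35 log2. Probe A_55_P1981479 lay between 0.954% and 3.1% on the Tbx3-high arrays, below background, against 20.4%, 19.6%, 28.1% and 22.3% on the Tbx3-low arrays, at least 6.85-fold lower in Tbx3-high. The regulators Igtp and Irgm2 were measured on every array and differed less. Igtp, read from 10 spots an array, had 34.7%, 30.2%, 34.4% and 29.6% on the Tbx3-high arrays, against 126%, 127%, 161% and 160% on the Tbx3-low arrays, a difference of -2.15 log2. Irgm2 had 8.41%, 5.91%, 10.1% and 11.8% on the Tbx3-high arrays, against 29.0%, 30.5%, 38.1% and 35.6% on the Tbx3-low arrays, a difference of -1.92 log2. For all 3 regulators each Tbx3-high array lay below each Tbx3-low array.

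Each row of the mESC slide held 2 arrays of both groups. The Igtp difference was -1.96 log2 in the first row and -2.33 in the second, the Irgm2 difference -2.08 and -1.76, and the Irgm1 difference (A_51_P262171) -4.33 and -4.37. The size of a difference depends on how background is removed, also for members that were not dim in either group. With normexp background correction the Gbp2 difference was -3.64 log2, the Gbp3 difference (A_55_P2472435) -1.54 and the Gbp7 difference (A_51_P463846) -0.47, and the number of member probes without overlap and at least 2-fold lower was 5 in place of 8. With the deposited series table these differences were -4.19, -2.01 and -0.79, and the number was 6. Of the members not dim in either group, Igtp moved to -1.67 with normexp and -1.77 with the series table. Irgm2 moved to -0.91, short of 2-fold, and -1.15, and Irgm1 (A_51_P262171) to -2.47 and -2.91.

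**Figure D2:**
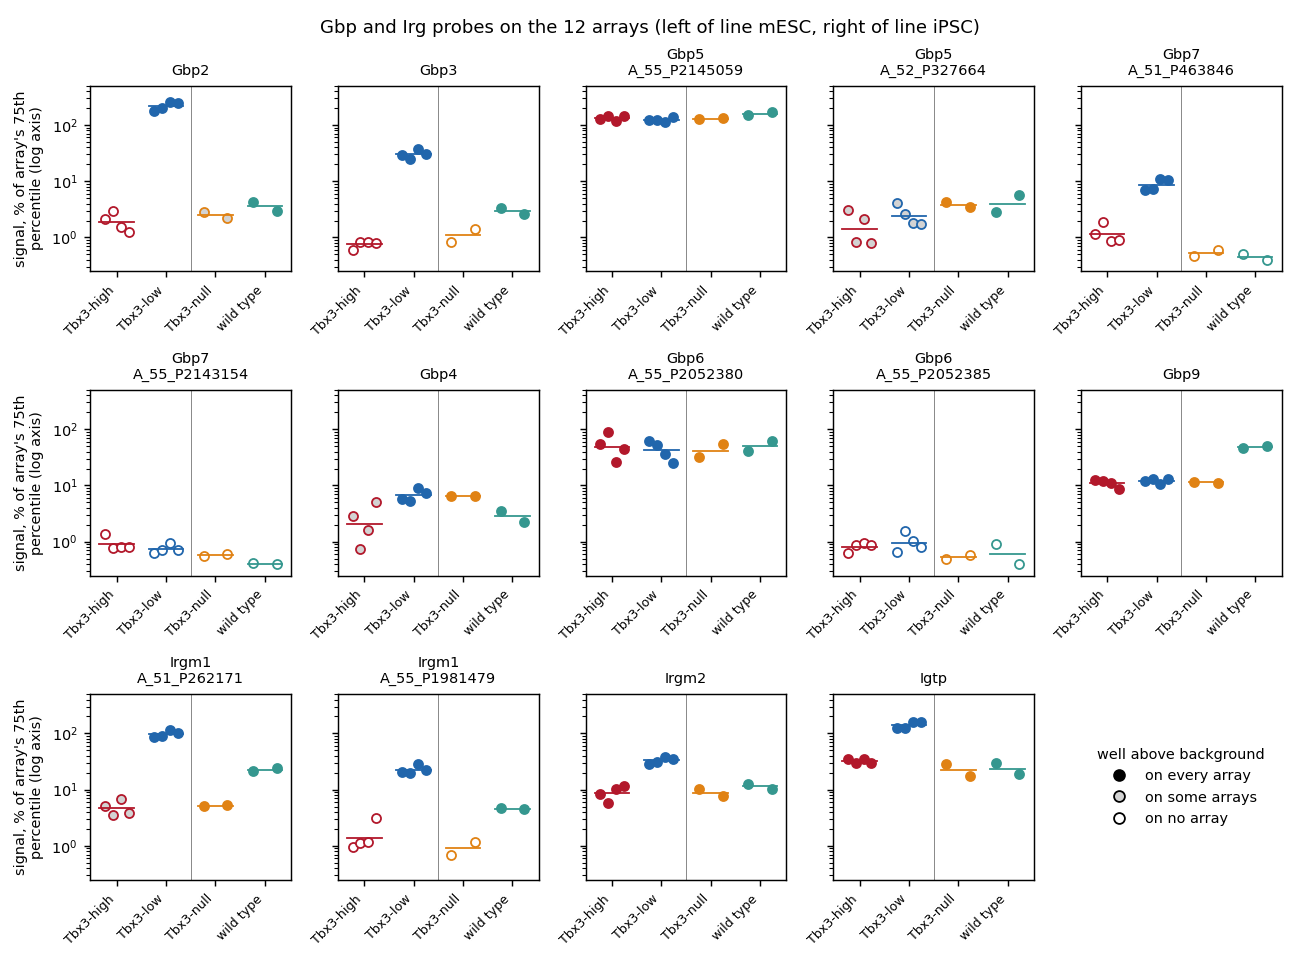
Signals of the 14 member probes on each array, in percent of the array's 75th percentile on a log axis, 1 panel per probe, with Tbx3-high and Tbx3-low mESC left of the line and Tbx3-null and wild-type iPSC right of it. Points are arrays, filled where all arrays of the group passed the background mark, grey where some did and open where none did, and bars are means of the log2 values. Gbp2, Gbp3, Gbp7, Gbp4, both Irgm1 probes, Irgm2 and Igtp show all Tbx3-high points below all Tbx3-low points. In iPSC 7 probes show both Tbx3-null points below both wild-type points: Gbp2, Gbp3, Gbp5 (A_55_P2145059), Gbp9, both Irgm1 probes and Irgm2. Another 2 show them above, Gbp4 and the dim Gbp7 probe A_55_P2143154. The share of all probes that separate so in iPSC was not counted, and nothing is read from these numbers.

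In iPSC, 3 genes fell in the cells labelled Tbx3-null, Gbp3, Gbp9 and Irgm1, through 4 of the 11 member probes that passed the filter on dim probes, at an adjusted p under 0.05 in limma with Benjamini-Hochberg adjustment over all probes. No member probe rose, with 0 also at an unadjusted p under 0.05, 7 tested probes did not pass, and 3 were dim in both groups. Of all 36712 probes tested, 12.9% were called lower in Tbx3-null, 15.5% higher and 28.3% in either direction. Gbp3 and Irgm1 probe A_55_P1981479 passed that filter through the wild-type arrays alone. The filter thus set their direction, and their p-values are no separate support for a fall. The 4 called probes come from 3 genes, and the pair of Irgm1 probes reads 1 transcript, so nothing beyond the single calls is read from their count.

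Gbp9, the chromosome 5 gene that overlapped in mESC, had the smallest adjusted p among the members. It had 11.7% and 11.1% on the Tbx3-null arrays, against 45.5% and 51.1% on the wild-type arrays. The fall was -2.08 ± 0.17 log2 (SE, n = 2 arrays a group; limma, adjusted p = 1.5e-05), a 4.23-fold lower signal in Tbx3-null. Irgm1 fell on both probes: A_51_P262171 had 5.04% and 5.23% on the Tbx3-null arrays, against 21.1% and 24.1% on the wild-type arrays, a change of -2.13 ± 0.27 log2 (SE; limma, adjusted p = 2.5e-04). Probe A_55_P1981479 had 0.703% and 1.20% on the Tbx3-null arrays, below background, against 4.69% and 4.49% on the wild-type arrays, at least 1.94-fold lower in Tbx3-null (limma, adjusted p = 0.0048). For Gbp9 and for Irgm1 probe A_51_P262171 the arrays of 1 group lay closer to each other than to any array of the other group.

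Gbp3 was near the limit of detection and entered the test through the wild-type arrays alone. It had 0.847% and 1.43% on the Tbx3-null arrays, below background, against 3.4% and 2.63% on the wild-type arrays, at least 1.26-fold lower in Tbx3-null (limma, adjusted p = 0.0031). Its call was lost with normexp background correction (adjusted p = 0.65) and with the deposited series table (adjusted p = 0.12), and the call of Irgm1 probe A_55_P1981479 was lost with normexp (adjusted p = 0.13). Irgm1 probe A_51_P262171 and Gbp9 stayed under 0.05 in each alternative run, and no call of the 4 probes was lost when an iPSC array was left out.

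The other members did not pass. Gbp2 had 2.82% and 2.26% on the Tbx3-null arrays, against 4.26% and 3.02% on the wild-type arrays, a change of -0.51 ± 0.37 log2 (SE; limma, adjusted p = 0.36), and the groups did not overlap, but the sign turned with normexp (0.09). Igtp had 29.0% and 17.6% on the Tbx3-null arrays, against 29.5% and 18.7% on the wild-type arrays, so that the groups overlapped and the estimate was -0.05 ± 0.26 (SE; limma, adjusted p = 0.92), of the other sign with normexp, quantile normalization and the series table. Irgm2 had 10.3% and 7.64% on the Tbx3-null arrays, against 12.7% and 10.5% on the wild-type arrays, with an estimate of -0.38 ± 0.29 (SE; limma, adjusted p = 0.38). The arrays of 1 group differed for Igtp by more than the group means did.

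Gbp4 was the 1 tested member with a positive estimate. It had 6.48% and 6.47% on the Tbx3-null arrays, against 3.47% and 2.27% on the wild-type arrays, without overlap, and 1.21 ± 0.69 log2 (SE; limma, adjusted p = 0.24). Over the alternatives its adjusted p ran from 0.0060 to 0.56. It passed with normexp (adjusted p = 0.0060), with the deposited series table (0.035) and with only the 4 iPSC arrays in the fit (0.022). Gbp5 by probe A_55_P2145059 had 126% and 132% on the Tbx3-null arrays, against 151% and 169% on the wild-type arrays, a change of -0.31 ± 0.13 log2 (SE; limma, adjusted p = 0.12), which passed with the series table (0.042). Gbp6 by probe A_55_P2052380 had 32.3% and 54.0% on the Tbx3-null arrays, against 40.9% and 62.1% on the wild-type arrays, and did not pass (limma, adjusted p = 0.78). Gbp5 by A_52_P327664 lay between 2.88% and 5.60% over the 4 iPSC arrays and did not pass either (limma, adjusted p = 0.96; the sign turned with normexp, quantile normalization and the series table), and Gbp7 was not well above background on any iPSC array.

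By group means within each cell type, the order of the levels differed between members. Gbp2 averaged 1.86% in Tbx3-high and 218% in Tbx3-low mESC, without overlap, but 2.52% in Tbx3-null and 3.58% in wild-type iPSC. Gbp9 averaged 10.9% in Tbx3-high and 12.2% in Tbx3-low mESC, neighbours that overlapped, but 11.4% in Tbx3-null and 48.2% in wild-type iPSC. Igtp averaged 32.1% in Tbx3-high and 142% in Tbx3-low mESC, but 22.6% in Tbx3-null and 23.5% in wild-type iPSC, neighbours that overlapped. Irgm1 (A_51_P262171) averaged 4.75% in Tbx3-high and 96.9% in Tbx3-low mESC, and 5.14% in Tbx3-null and 22.6% in wild-type iPSC, without overlap in either cell type.

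**Figure D3:**
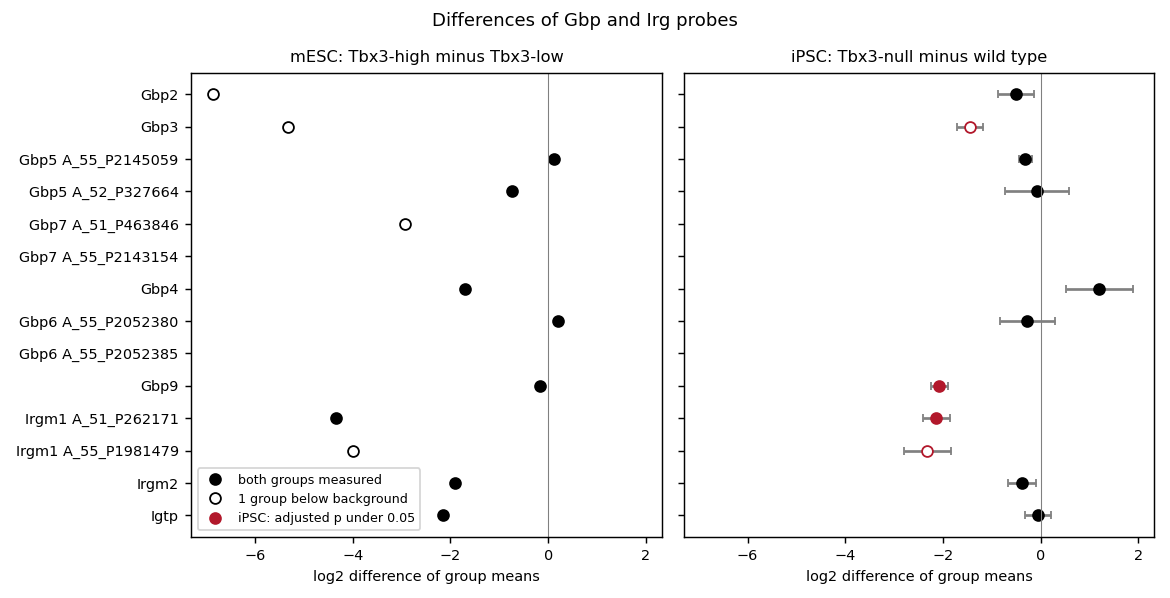
Log2 differences of group means for the member probes, Tbx3-high minus Tbx3-low mESC at left and Tbx3-null minus wild-type iPSC at right, on 1 axis scale. Probes dim in both groups of a comparison, 2 in mESC and 3 in iPSC, have no point there. Open points have 1 group below background on all its arrays and are therefore not exact, red points have an adjusted p under 0.05, and bars are SE of the limma fit, drawn for the tested iPSC comparison only. The mESC points of Gbp2 and Gbp3 are open, Igtp lies at -2.15 in mESC and -0.05 in iPSC, and Gbp9 differs by -0.16 in mESC and -2.08 in iPSC.

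The other genes of the interferon pathway were read from 7 lists of 132 genes, 129 with a probe, written with earlier results of these data known. In mESC, 97 were tested, 34 fell and 15 rose in Tbx3-high cells, with a median of -0.13 log2, against 13.9% lower and 17.2% higher among all 15884 named genes, whose median was 0.04. In iPSC, 102 were tested, 32 fell and 16 rose in Tbx3-null cells, with a median of -0.13, against 15.3% lower and 19.4% higher among all 17756 named genes and a median of 0.07.

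Antiviral interferon-stimulated genes held most of the mESC falls, 19 of 30 tested, with 1 rise (Xaf1, named after its value was seen). Oasl2, an antiviral relative of the oligoadenylate synthetases, had 1.14%, 0.722%, 0.776% and 0.722% on the Tbx3-high arrays, below background, against 71.4%, 89.9%, 104% and 105% on the Tbx3-low arrays, at least 28.0-fold lower (limma, adjusted p = 7.2e-09). Cd274, the checkpoint ligand PD-L1, was at least 8.36-fold lower and Rsad2, the antiviral enzyme viperin, at least 2.50-fold lower in Tbx3-high. Cxcl10, a chemokine that interferon gamma induces, changed by -2.47 ± 0.14 log2 (SE; limma, adjusted p = 6.3e-07). Earlier results already showed Oasl2, Cd274 and Psmb8, so these are not separate evidence.

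In iPSC the antiviral list split, with 8 of 27 tested genes lower and 6 higher in Tbx3-null. Cxcl10 had 11.5% and 13.2% on the Tbx3-null arrays, against 2.46% and 2.39% on the wild-type arrays, a rise of 2.34 ± 0.20 log2 (SE; limma, adjusted p = 1.8e-05). Bst2, which tethers budding virus to the membrane, rose by 1.93 ± 0.11 (SE). Ifi27 changed by -3.74 ± 0.34 (SE) and Xaf1 by -1.85 ± 0.17 (SE). Thus Cxcl10 fell in Tbx3-high mESC and rose in Tbx3-null iPSC, while Gbp3 and Irgm1 were lower in both. These groups stand at opposite ends of the Tbx3 labels. By label, Cxcl10 was lower on the side with more Tbx3 in both cell types, while Gbp3 and Irgm1 changed sides. No test of the difference between the cell types was made.

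Genes of antigen processing and presentation fell in 8 of 15 tested in mESC, with 3 rises. Psmb8, a subunit of the immunoproteasome, had 4.04%, 4.17%, 1.38% and 3.05% on the Tbx3-high arrays, 2 of them well above background, against 53.5%, 51.6%, 57.8% and 54.4% on the Tbx3-low arrays. The class II genes H2-Ab1 and Cd74 rose in Tbx3-high, by 1.35 ± 0.17 and 1.08 ± 0.11 log2 (SE). In iPSC 8 of 15 fell in Tbx3-null and 0 rose, at an adjusted p under 0.05 in limma (1, Psme1, rose at an unadjusted p under 0.05). There H2-Ab1 and Cd74 fell, by 1.84 ± 0.25 and 1.36 ± 0.16 log2 (SE), as did the immunoproteasome subunit Psmb9, by 1.52 ± 0.11 (SE). Nlrc5, the class I transactivator, was at least 3.21-fold lower, but its other probe did not pass (limma, adjusted p = 0.90).

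Receptors and signalling genes moved in both directions in mESC, 6 rising and 3 falling of 20 tested. Irf1, the factor that relays interferon gamma to its targets, had 417%, 352%, 431% and 405% on the Tbx3-high arrays, while the Tbx3-low arrays had 1281%, 1210%, 1499% and 1449%. The change was -1.76 ± 0.09 log2 (SE; limma, adjusted p = 4.0e-07). Irf8 rose by 0.998 ± 0.11, Irf5 by 0.69 ± 0.08, Irf3 by 0.31 ± 0.07 and Ifnar2, a subunit of the type I interferon receptor, by 0.61 ± 0.07 log2 (SE). Irf9 rose by 0.28 ± 0.09 (SE; limma, adjusted p = 0.036), a call lost with the replicate block (adjusted p = 0.080) and in 6 of the 8 fits that left out an array. The Irf9 call was also lost with quantile normalization (limma, adjusted p = 0.051) and with no filter on dim probes (0.11). Socs3, an inhibitor of cytokine signalling, rose by 0.78 ± 0.10 log2 (SE). The interferon gamma receptor chains Ifngr1 and Ifngr2 and the receptor genes Ifnar1, Ifnlr1 and Il10rb did not pass, nor did Stat2, but Ifnar1 passed by the mean of its probes (-0.26 log2; limma, adjusted p = 0.033). Irf2 and Irf7 were not well above background on any mESC array and were not tested there or in iPSC.

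In iPSC 8 of 21 receptor and signalling genes fell in Tbx3-null and 2 rose. Irf1 had 612% and 576% on the Tbx3-null arrays, against 1026% and 970% on the wild-type arrays, a change of -0.75 ± 0.13 log2 (SE; limma, adjusted p = 0.0018). Irf8 was at least 2.12-fold lower and lost its call with normexp (adjusted p = 0.28). Irf9 fell by 0.64 ± 0.12, while the phosphatase Ptpn6 rose by 1.02 ± 0.14 log2 (SE). Ifnar1 rose by 0.48 ± 0.13 and Ifnar2 fell by 0.33 ± 0.10 (SE), and both calls were lost without wild-type replicate 1, the first also without Tbx3-null replicate 1 and the second also without Tbx3-null replicate 2 or wild-type replicate 2. The other probes of Ifnar1 did not pass, at 0.11 (adjusted p = 0.76) and -0.24 log2 (adjusted p = 0.40) in limma, nor did the mean of its probes, at 0.12 (adjusted p = 0.48). Ifngr1, Ifngr2, Ifnlr1, Il10rb, Stat2, Irf3 and Irf5 did not pass. Stat2, at 0.27 log2 (limma, adjusted p = 0.051), kept that estimate in the fit by gene, where no other probe entered its mean. It passed there (limma, adjusted p = 0.028), and also with normexp (0.033) and array weights (0.036).

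Of the nucleic acid sensors, Zbp1, which starts necroptosis, was lower in Tbx3-high mESC and Tbx3-null iPSC, opposite ends of the Tbx3 labels. It had 14.7%, 15.1%, 20.4% and 17.9% on the Tbx3-high arrays against 81.3%, 89.1%, 101% and 100% on the Tbx3-low arrays, a change of -2.46 ± 0.12 log2 (SE; limma, adjusted p = 3.2e-07). In iPSC it had 20.9% and 21.7% on the Tbx3-null arrays against 94.4% and 75.7% on the wild-type arrays, a change of -1.99 ± 0.18 (SE; limma, adjusted p = 2.4e-05). With each gene read from its brightest probe, it was the 1 fall among 10 sensors tested in mESC, where Ifi204 did not pass (-1.06 log2; limma, adjusted p = 0.11) but its other probe, A_55_P2066578, fell by 2.56 log2 (limma, adjusted p = 5.2e-06). The 2 rises were Sting1 by 0.49 ± 0.08 and Mavs by 0.26 ± 0.08 log2 (SE). The Mavs call (limma, adjusted p = 0.034) was lost in 6 of the 8 fits that left out an array. It was also lost with normexp (limma, adjusted p = 0.093), the series table (0.084) and no filter on dim probes (0.10). In iPSC 5 of 11 fell and 3 rose. Ifih1, the RNA sensor MDA5, was at least 2.28-fold lower in Tbx3-null, Sting1 fell by 1.68 ± 0.11 (SE), and Ifi204 rose by 2.38 ± 0.65 log2 (SE), a call lost without Tbx3-null replicate 1, Tbx3-null replicate 2 or wild-type replicate 2.

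Among relatives of the members, 7 of 18 were tested in mESC and 12 in iPSC, and 1 fell and 1 rose in each. Tgtp2, an Irg GTPase of the effector kind, changed by -1.24 ± 0.16 log2 (SE; limma, adjusted p = 2.5e-04) in mESC and by -0.87 ± 0.24 (SE; limma, adjusted p = 0.021) in iPSC, the last a call lost without Tbx3-null replicate 1 and without wild-type replicate 1. With normexp Tgtp2 passed in neither comparison (limma, adjusted p = 0.11 in mESC and 0.095 in iPSC). Its iPSC call was also lost with the replicate block (limma, adjusted p = 0.071) and with only the iPSC arrays in the fit (0.068). Irgq, an Irg relative, rose by 0.32 ± 0.09 (SE) in mESC, a call lost without Tbx3-low replicates 1, 2 or 4 and without Tbx3-high replicates 3 or 4, and by 0.999 ± 0.13 (SE) in iPSC. Interferon ligands were near or below background. Of 8 with a probe, 3 were tested in mESC with 0 calls at an adjusted and 0 at an unadjusted p under 0.05 in limma, and 4 in iPSC, where Ifnk fell by 2.64 ± 0.54 log2 (SE), a call lost with only the iPSC arrays in the fit (adjusted p = 0.061). Ifnb1 and Ifng, named after their values were seen, were not well above background on any of the 12 arrays.

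The autophagy conjugation genes, some of which are needed to load Gbp and Irg proteins onto vacuoles, had 12 of 12 tested in both comparisons. In mESC 2 fell and 2 rose: Gabarapl2 rose by 0.70 ± 0.06 and Atg5 by 0.35 ± 0.08, while Sqstm1 fell by 0.62 ± 0.08 and Gabarapl1 by 0.46 ± 0.07 log2 (SE). In iPSC 4 rose and 1 fell in Tbx3-null: Sqstm1 rose by 0.85 ± 0.12, Gabarapl1 by 0.72 ± 0.10 and Gabarap by 0.50 ± 0.11, and Gabarapl2 fell by 0.34 ± 0.09 log2 (SE). The second probe of Sqstm1 did not pass in either comparison, 1 of the other Gabarap probes did not pass in iPSC, the Gabarap call was lost without wild-type replicate 1, and the Gabarapl2 call in iPSC was lost without Tbx3-null replicate 1 and without wild-type replicate 2.

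**Figure D4:**
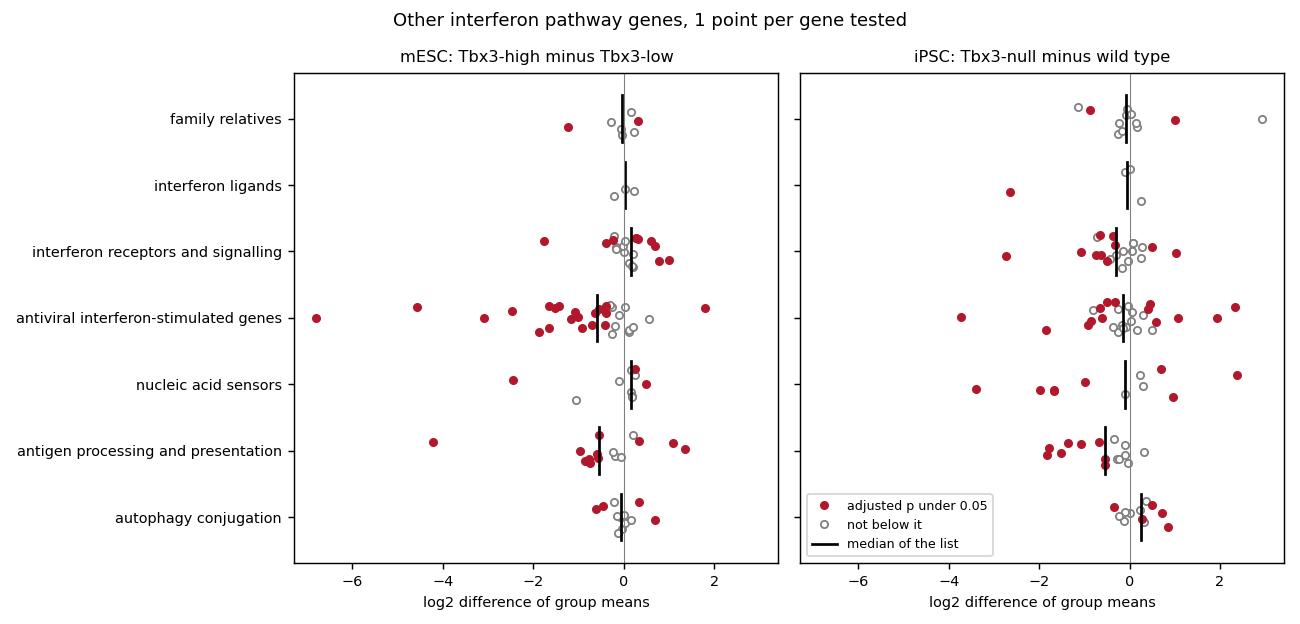
Log2 differences of the other interferon pathway genes by list, 1 point per gene tested, Tbx3-high minus Tbx3-low mESC at left and Tbx3-null minus wild-type iPSC at right, on 1 axis scale. Red points have an adjusted p under 0.05 in limma, open points do not, and black bars are list medians. The antiviral genes have a median of -0.58 in mESC and -0.15 in iPSC, and the antigen presentation genes of -0.54 in both.

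The genes next to the 4 clusters, the nearest 3 on each side, were read to see whether neighbours moved with the members. They were protein-coding genes with a probe, and the members' 18 listed relatives, such as Tgtp2, were left out. Of 24 such genes 19 were tested, and in mESC 3 fell and 4 rose in Tbx3-high, near the 13.9% lower and 17.2% higher of all named genes, in a range from -1.20 to 0.74 log2. In iPSC 3 fell and 2 rose in Tbx3-null, in a range from -2.79 to 1.29 log2, against 15.3% lower and 19.4% higher of all named genes. The lowest mESC value, -1.20 log2, was that of Psme2b beside Irgm1, named after its value was seen. The counts of these neighbours, from which only the listed relatives were left out, thus lay near or below the background.

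The genes whose profile over the 12 arrays was most like the mean profile of the 10 members, measured by the root-mean-square difference of centred log2 values among 17895 genes, were 2610528J11Rik at 0.29, Fhl2 at 0.32, Krt9 at 0.33, Sytl3 and Cidec at 0.34, Parp10 and Lypd6b at 0.38 and Ap3b2 at 0.39. These points share arrays and scaling, and the likeness carries no test. Among the members Irgm2 was nearest to that mean profile, at 0.36, followed by Igtp at 0.43, and Gbp2 was farthest, at 2.01. Each member is part of that mean, unlike the genes outside. The mean profile also carries the mESC gap known when the members were chosen, 1.55 in Tbx3-low and -0.96 in Tbx3-high cells. The measure is not scaled for the size of the changes, so it does not rank how alike the directions were. Gbp2 varied most of the members over the arrays, with an SD of 3.25 log2, while Gbp5 lay at 1.19 with an SD of 0.17.

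Markers of other cell types were summed for each array. The leukocyte and macrophage list (12 genes) summed to between 1388% and 2199% of the 75th percentile on the Tbx3-high and between 1335% and 1828% on the Tbx3-low arrays, with 6 of 12 above background on all arrays of each group and Lyz2 and Tyrobp dim in both. Of its 6 genes tested in mESC 1 rose and 0 fell in Tbx3-high. In iPSC this list summed to between 2249% and 2356% on the Tbx3-null and between 2687% and 2947% on the wild-type arrays, with 9 of 12 above background on all arrays in each group and Lyz2 dim in both. There 1 of 10 tested fell and 0 rose in Tbx3-null, and the part of the list in the iPSC falls was not tested. The fibroblast list summed to between 481% and 2957% on the Tbx3-high and between 643% and 755% on the Tbx3-low arrays, the highest sum coming from Thy1 at 2661% on Tbx3-high replicate 2. Of 7 fibroblast markers tested in mESC 3 rose (Col1a1, Pdgfra and Pdgfrb) and 1 fell (Tagln) in Tbx3-high, with a median of 0.77 log2. In iPSC the fibroblast list summed to between 481% and 555% on the Tbx3-null and between 498% and 529% on the wild-type arrays, and of 10 tested 3 fell (Col1a1, Pdgfra and Pdgfrb) and 2 rose (Lum and Tagln), with a median of -0.16 log2. The endothelial list (6 genes) summed to between 673% and 803% on the Tbx3-high and between 578% and 853% on the Tbx3-low arrays, with 1 rise (Pecam1) among 3 tested and Cdh5, Emcn and Tie1 dim in both groups. In iPSC it summed to between 913% and 1058% on the Tbx3-null and between 855% and 942% on the wild-type arrays, with 1 rise (Tie1) and 1 fall (Pecam1) among 4 tested. The part of these lists in the members' values was not tested. In these bulk samples fewer cells that express a gene and less RNA per cell cannot be told apart.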

How the data were processed

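RNA of 12 samples was hybridised singly to one-colour Agilent arrays, after 50 ng of each was labelled with Cy3, per the labels' protocols. Each spot's processed intensity, background subtracted, came from Agilent Feature Extraction 10.7.3.1 per the file headers, which place the probes on mm9. A deposited series table gives log2 values, of which scaling and background treatment stay unknown. Its columns had medians of 6.61 on the mESC and 6.58 to 6.59 on the iPSC arrays and correlated with the log2 mean intensity at r of at least 0.9988, and it served as an alternative.

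The values were log2 of the processed intensity minus each array's 75th percentile, without control spots and spots marked as outliers, with spots of 1 probe averaged. Probes were tested in a comparison if all arrays of either group marked them well above background. A probe dim on all arrays of 1 group thus entered through the other group, and the filter set its direction. One model of 4 group means covered all 12 arrays (limma 3.58.1 in R 4.3.3), and p-values were adjusted by Benjamini-Hochberg over all probes tested. The fit was tested on simulated data. Each pathway gene was read from its probe with the highest mean signal, named through RefSeq accessions (27656 probes), symbols (3401) or synonyms (307). Genes named in the text were all member probes, the 4 called genes of a list with the largest change in each comparison, every interferon receptor, Stat and Irf gene, and the 8 genes nearest the members' mean profile, besides a few the text marks as named after their values were seen. A pathway gene that this rule names is not reported here. The members and the lists were chosen with earlier results of these data known.

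Samples with the same number in the 2 mESC groups deviated together from their group means (r = 0.15, 0.24, 0.17 and 0.12). They also shared a slide row, and pairs of other numbers in 1 row gave r of 0.04, 0.34, 0.22 and 0.13. Pairs across rows lay between -0.30 and -0.07. The same-number values thus do not set replicate pairing apart from slide row, and each was run as a block. Alternatives were normexp background correction, quantile normalization, the series table, no filter on dim probes, fits of 1 cell type, array weights, slide row as a block, means over a gene's probes, leaving out each array and, added after seeing the data, lifting dim mESC member signals to the detection floor. The number of arrays, 4 or 2 a group, limits the precision.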

Additional observations from a re-analysis of the deposited data

Results flagged for a closer look

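In 8 of the 94 groups of 4 mESC arrays checked, 1 array lay far from the other three, by its gap to the nearest relative to the whole range of the group. Chance gives about 1 in 20 such groups. Of the members, Tbx3-high replicate 1 had the lowest signal of its group for Gbp3, at 0.592% of the 75th percentile against 0.802% to 0.845% on the others, and for Gbp6 probe A_55_P2052385, at 0.632% against 0.871% to 0.93%. For Gbp7 probe A_55_P2143154 it had the highest, at 1.37% against 0.761% to 0.82%. All 3 probes were below background on these arrays.

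Among the pathway genes, Tbx3-high replicate 1 was highest for Oasl2, at 1.14% against 0.722% to 0.776% and below background, and for Irf3, at 1073% against 983% to 992%. Tbx3-high replicate 2 was highest for Psmb10, at 1046% against 951% to 965%, and lowest for H2-Ab1, at 217% against 266% to 272%. Tbx3-low replicate 4 was highest for Gabarapl2, at 3832% against 3594% to 3614%.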

How the results depend on the processing

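Under normexp background correction 5 member probes, in place of 8, were lower in Tbx3-high without overlap and by at least 2-fold, and 6 were with the series table; the cause was not tested. With signals below the background mark lifted to the detection floor, added after seeing the data, 7 were, Gbp4 falling short of 2-fold. With the replicate block the mESC comparison called 8007 probes and 48 pathway genes, against 7946 and 49 without it, and ended the named call of Irf9. The slide row block, in a fit of the mESC arrays alone, called 9723 probes and 55 pathway genes, against 7671 and 48 without it. The iPSC numbers share only a number, and there the replicate block gave 9529 probes, 43 pathway genes and 4 member probes, against 10398, 48 and 4. That block ended the named iPSC calls of Tgtp2, Ifnar1 and Ifi204. With only the iPSC arrays in the fit, the iPSC calls of Tgtp2, Ifnk, Ifnar1, Ifnar2, Ifi204, Gabarap and Gabarapl2 were lost. With no filter on dim probes, those of Irgq, Irf9 and Mavs were lost in mESC and those of Ifnar2 and Gabarapl2 in iPSC. Every value whose sign turned belongs to a gene that had not passed, and the causes were not tested. With normexp, Gbp2 was 0.0911, Gbp5 (A_52_P327664) 0.200 and Igtp 0.0461 in iPSC. With quantile normalization, Gbp5 (A_52_P327664) was 0.0721, Igtp 0.0114 and Irf3 -0.0896 in iPSC, and Ifnlr1 -0.0166 in mESC. With the series table, Gbp5 (A_52_P327664) was 0.0759, Igtp 0.0288 and Irf3 -0.112 in iPSC, and Ifnlr1 -0.00259 in mESC. Leaving out each array in turn gave ranges in mESC of -0.0446 to 0.0654 for Ifnlr1 and -0.0534 to 0.0159 for Stat2. In iPSC it gave -0.548 to 0.412 for Gbp5 (A_52_P327664), -0.641 to 0.0983 for Gbp6 (A_55_P2052380), -0.412 to 0.307 for Igtp and -0.0589 to 0.155 for Irf3. Signals near background limit the folds of Gbp2, Gbp3, Gbp4, Gbp7 and Irgm1. The mESC differences of Irgm2 and Igtp, measured on every array, also shrank with normexp, to -0.91 and -1.67 log2.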
